A study of Mus musculus with 2 samples.

Results

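The immunity-related GTPases and guanylate-binding proteins described here are 10 genes of the mouse genome: *Gbp2*, *Gbp3*, *Gbp4*, *Gbp6* and *Gbp7* of the GBP family, and *Igtp*, *Iigp1*, *Irgm1*, *Irgm2* and *Tgtp1* of the IRG family. They were chosen by name, with the ratio of transgenic over wild-type prostate on these arrays already known, so their ratios are a description, and no statement is supported by them. Probes were assigned by matching the array's accessions to RefSeq symbols. The 10 genes have 12 probes, with 2 probes each for *Irgm1* and *Tgtp1* and 1 probe for each of the other 8 genes. Of these probes 10 were detected, which measured 9 of the 10 genes, out of 13899 genes detected on the arrays. *Gbp4* was the gene without a detected probe.

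The samples were ventral prostates of ARR2PB-miR32 transgenic mice and of wild-type mice, all 6 months old and of the FVB/N strain, which the labels also spell FBV/N. RNA of 6 transgenic mice made one pool and RNA of 6 wild-type mice the other, and both pools were hybridised together to 2 two-colour Agilent whole mouse genome arrays. On array 1 the transgenic pool carried Cy3 and the wild-type pool Cy5, and on array 2 the dyes were swapped. ARR2PB is a composite probasin promoter that is driven by androgen in prostate epithelium, so the transgene is an overexpression in the epithelial cells of the gland, and the growth text names dorsolateral beside ventral prostates as the tissue collected. Both arrays measured the same pair of pools, so each genotype has 1 replicate, no test was possible and no p-value is given. Errors are SDs between the 2 technical arrays (n = 2), and differences among mice do not enter them.

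Interferon-gamma binds a receptor of IFNGR1 and IFNGR2 chains, and the kinases JAK1 and JAK2 then carry the signal on to GAS elements (gamma-activated sites) in the promoters of target genes. One early target is IRF1, which binds the related interferon-stimulated response element. The IRG proteins and the GBPs are among the most strongly induced products of this pathway in mouse cells. They are GTPases that gather on the vacuoles of intracellular pathogens such as *Toxoplasma gondii* and help to disrupt them, and the regulatory IRGM proteins hold the effector IRG proteins inactive on the cell's own membranes.

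The transgene's microRNA, miR-32, and the promoters of the genes are shown first, since the comparison rests on the one and interferon-gamma is known to act through the other. The mature microRNA of RefSeq (GRCm38.p6) has its seed, bases 2 to 8, in capitals.
mmu-miR-32-5p: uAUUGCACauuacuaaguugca
The seed is shared by 6 mature mouse microRNAs of that table, among them miR-25-3p, miR-92a-3p and miR-363-3p. The level of miR-32 itself was not analysed here. Whether the messenger RNAs of the 10 genes hold sites for this seed was not tested, since no transcript sequence was used here.

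RefSeq's promoter table (GRCm38.p6) held an entry for 7 of the 10 genes. Each entry runs from 250 bases before the start site through the first 50 bases from it. A search of both strands of the whole entry looked for the GAS motif TTCNNNGAA, and for a pair of GAAA half-sites with 2 bases between them, which IRF factors bind. The stretch from base -110 to base -1, which holds every match of these 7 genes, is printed on the strand of the gene, with each match in capitals, and matches of the pair can overlap each other, as in *Gbp3* and *Irgm1*. *Gbp3* has a pair of entries, and the upstream one is printed. The windows of the GBP genes are those of *Gbp2* at chr3:142620553-142620662 (plus strand), *Gbp3* at chr3:142559934-142560043 (plus strand) and *Gbp7* at chr3:142530226-142530335 (plus strand).
Gbp2: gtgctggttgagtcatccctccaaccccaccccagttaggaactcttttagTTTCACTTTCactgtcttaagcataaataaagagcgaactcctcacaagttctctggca
Gbp3: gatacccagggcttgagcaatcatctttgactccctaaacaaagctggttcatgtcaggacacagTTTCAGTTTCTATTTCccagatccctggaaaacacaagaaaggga
Gbp7: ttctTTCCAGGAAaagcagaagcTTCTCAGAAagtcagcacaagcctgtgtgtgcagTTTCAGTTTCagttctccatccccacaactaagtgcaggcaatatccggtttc
The windows of the IRG genes are those of *Igtp* at chr11:58199446-58199555 (plus strand), *Irgm1* at chr11:48871421-48871530 (minus strand), *Irgm2* at chr11:58214867-58214976 (plus strand) and *Tgtp1* at chr11:48992247-48992356 (minus strand).
Igtp: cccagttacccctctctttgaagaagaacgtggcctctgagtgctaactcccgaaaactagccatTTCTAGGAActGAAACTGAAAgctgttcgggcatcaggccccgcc
Irgm1: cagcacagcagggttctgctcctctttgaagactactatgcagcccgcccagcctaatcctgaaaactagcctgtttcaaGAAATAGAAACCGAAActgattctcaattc
Irgm2: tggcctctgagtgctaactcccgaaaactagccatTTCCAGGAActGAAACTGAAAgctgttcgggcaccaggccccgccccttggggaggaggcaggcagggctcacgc
Tgtp1: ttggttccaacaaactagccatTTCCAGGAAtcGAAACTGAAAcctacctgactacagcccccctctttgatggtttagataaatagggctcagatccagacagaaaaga
All 7 genes held the GAAA pair, *Gbp3* in its upstream entry alone, and 4 of the 7 held the GAS motif. The pair occurs in 3.44% of the 32851 promoters of the table and in 3.99% of its 27025 genes, and the GAS motif in 8.30% and 9.55% of them. In *Igtp*, *Irgm2* and *Tgtp1* the GAS motif is followed, after 2 bases, by the GAAA pair. That arrangement, in either order, was found in 5 of all the promoters (0.0152%), those of *Igtp*, *Irgm2*, *Tgtp1*, *Tgtp2* and *Gm12185*, which are IRG genes and share sequence. The windows of *Igtp* and *Irgm2* have a run of 38 bases in common, so these matches are not independent of each other. Such a match is a description of the letters and not a measured binding site.

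The motifs were also counted in other genes, over the same whole entries, with a gene counted once if any of its promoters held a match. Of 10 GTPase relatives with an entry, 6 held the GAAA pair and 4 the GAS motif, and of 10 atlastins and dynamins 0 held either. Of the other genes called lower in the transgenic pool, 231 had an entry, and 8.66% of these held the GAAA pair and 10.8% the GAS motif. The shares were 2.73% and 7.27% of the 110 genes with an entry that were called higher, and 3.36% and 8.31% of the 8432 with an entry that were detected and not called. Of 7 MHC class II genes with an entry, 0 held the GAAA pair and 1 the GAS motif. Of 21 interferon-gamma-inducible genes other than GTPases with an entry, 4 held the pair and 5 the GAS motif. Among 10 luminal epithelium markers with an entry, 3 held the pair and 2 the GAS motif. None of the 6 fibroblast and 6 smooth muscle markers with an entry held either.

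Of the 9 detected genes, 8 were lower in the transgenic pool and 0 higher. A gene was called where the mean log2 ratio reached 1 in either direction and each array alone showed 1.5-fold or more that way. Over all 13899 detected genes the same rule called 3.53% lower and 1.09% higher. The median log2 ratio of the 9 genes was -1.96, against 0.01 over all genes, and all 9 were below 0 on both arrays, as were 27.3% of all genes. These values come from the contrast the genes were chosen by, so nothing is read from the difference. The order by mean log2 ratio, from the lowest, was *Iigp1*, *Tgtp1*, *Igtp*, *Gbp2*, *Gbp3*, *Irgm2*, *Irgm1*, *Gbp6* and *Gbp7*. The closest members on either side of the limit were *Gbp6*, at -1.10 and called, and *Gbp7*, at -0.95 and not called. In that order, neighbours from *Igtp* to *Irgm2*, and *Irgm1* and *Gbp6*, differed by less than the larger of their SDs between arrays.

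**Figure D1:**
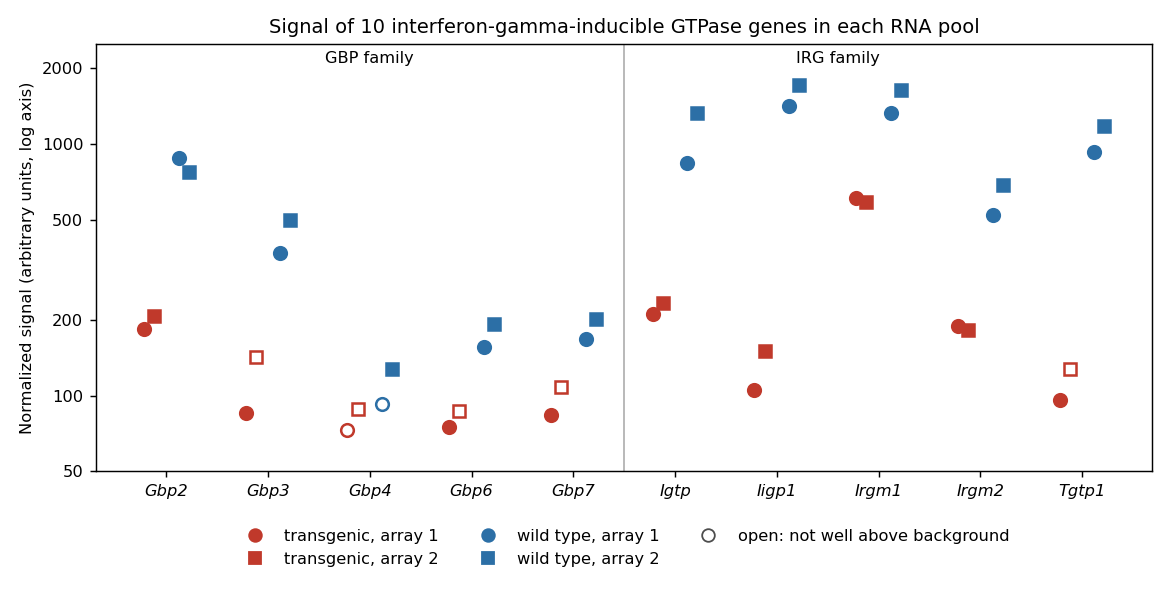
Normalized signal (log axis, arbitrary units) of the 10 genes in the transgenic pool (red) and the wild-type pool (blue) on array 1 (circles) and array 2 (squares), with open symbols where the probe was not well above background. On each array the 9 detected genes are lower in the transgenic pool, as are 27.3% of all detected genes, and *Gbp4* is near the floor in both pools.

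The IRG family contributed the lowest ratios, and all 5 of its genes were lower in the transgenic pool, with a median of -2.25. *Iigp1* encodes Irga6, an effector that coats the vacuole of *Toxoplasma gondii*. Its normalized signal was 105.5 and 150.3 in the transgenic pool on arrays 1 and 2, against 1421 and 1718 in the wild-type pool. It was 12.4-fold lower in the transgenic pool, with a mean log2 ratio of -3.63 ± 0.17 (SD, n = 2), and stood 25th from the lowest of all detected genes. The transgenic signal was well above background on both arrays.

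*Tgtp1* encodes Irgb6, another effector. The probe used gave 95.8 and 128.2 in the transgenic pool, against 930.7 and 1176 in the wild-type pool, or 9.44-fold lower, at a log2 ratio of -3.24 ± 0.06 (SD, n = 2). The transgenic signal was well above background on array 1 alone. The other *Tgtp1* probe was not detected and gave 87.4 and 84.6 in the transgenic pool, against 82.4 and 108.4 in the wild-type pool, so the 2 probes do not show the same difference. *Tgtp2* is a near-identical neighbour with no probe of its own, and how far the probe reads both genes was not tested.

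The regulatory genes *Igtp*, *Irgm1* and *Irgm2* hold the effectors inactive on host membranes, and *Igtp* is also known as Irgm3. *Igtp* had signals of 211.7 and 234.1 in the transgenic pool, against 842.0 and 1324 in the wild-type pool, and was 4.74-fold lower at -2.25 ± 0.36 (SD, n = 2). *Irgm2* had 189.3 and 181.8 in the transgenic pool, against 524.7 and 685.1 in the wild-type pool, and was 3.23-fold lower at -1.69 ± 0.31 (SD, n = 2). On both arrays both genes were well above background in each pool.

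*Irgm1*, also called LRG-47, has a role in autophagy as well as in host defence. Its brighter probe gave 609.5 and 587.7 in the transgenic pool, against 1328 and 1635 in the wild-type pool, or 2.46-fold lower at -1.30 ± 0.25 (SD, n = 2). Its dimmer probe gave 215.3 and 221.6 in the transgenic pool, against 358.8 and 468.0 in the wild-type pool, or 1.88-fold lower at -0.91 ± 0.24 (SD, n = 2), which the rule did not call. *Irgm1* had the ratio closest to 0 among the 5 IRG genes.

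In the GBP family 3 of 4 detected genes were lower in the transgenic pool, with a median of -1.53. *Gbp2*, which is recruited to pathogen vacuoles, had signals of 183.6 and 207.4 in the transgenic pool, against 883.4 and 772.5 in the wild-type pool. It was 4.23-fold lower at -2.08 ± 0.26 (SD, n = 2) and the only GBP gene that was well above background in each pool on each array. *Gbp3* had 85.2 and 141.9 in the transgenic pool, against 368.0 and 496.9 in the wild-type pool, and was 3.89-fold lower at -1.96 ± 0.21 (SD, n = 2).

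The remaining GBP genes were dim. *Gbp6* had 75.0 and 87.2 in the transgenic pool, against 155.7 and 192.4 in the wild-type pool, or 2.14-fold lower at -1.10 ± 0.06 (SD, n = 2). *Gbp7*, whose product takes part in autophagic and oxidative defence against bacteria, had 84.0 and 107.9 in the transgenic pool, against 167.6 and 201.8 in the wild-type pool, at -0.95 ± 0.07 (SD, n = 2). *Gbp4* had signals of 73.0 and 88.2 in the transgenic pool, well above background on neither array, against 92.2 and 127.9 in the wild-type pool, where array 2 alone reached that mark. Its log2 ratio was -0.44 ± 0.14 (SD, n = 2), from a probe that does not count as detected.

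The transgenic signal of *Gbp3*, *Gbp6*, *Gbp7* and *Tgtp1* was well above background on array 1 alone, where that pool carried Cy3, and for no gene on array 2 alone. The median raw local background was 26 in Cy3 on both arrays, and 112.5 and 116 in Cy5, so a dim signal is measured less well in Cy5. The offset of 50 added with the background correction pulls a ratio toward 0 where the signal of a pool is dim. By the scanner software's own background-subtracted ratios, without the offset, the log2 ratio was -3.43 for *Gbp3*, -3.16 for *Gbp6*, -2.54 for *Gbp7* and -5.03 for *Tgtp1*. All 9 genes were called lower by those ratios, under which 6.75% of all genes were. For *Irgm1*, well above background in each pool on each array, the value was -1.41.

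The raw signals of *Gbp3*, *Gbp6*, *Gbp7*, *Tgtp1* and *Gbp4* were clearest in Cy3, which carried the transgenic pool on array 1 and the wild-type pool on array 2. In that dye, without any normalization between arrays, the *Gbp3* spot read 76 over a local background of 27 for the transgenic pool, against 794 over 25 for the wild-type pool. *Gbp6* read 50 over 26 for the transgenic pool, against 240 over 31 for the wild-type pool, and *Gbp7* read 64 over 28, against 262 over 27. *Tgtp1* read 98 over 25 for the transgenic pool, against 2014 over 27 for the wild-type pool, by the probe used. For the undetected *Gbp4* the Cy3 readings were 40 over 26 for the transgenic pool, against 127 over 24 for the wild-type pool. In Cy5 the same transgenic readings stood closer to their background, for example 121.5 over 121 for *Gbp6* and 139 over 112 for *Gbp3*.

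**Figure D2:**
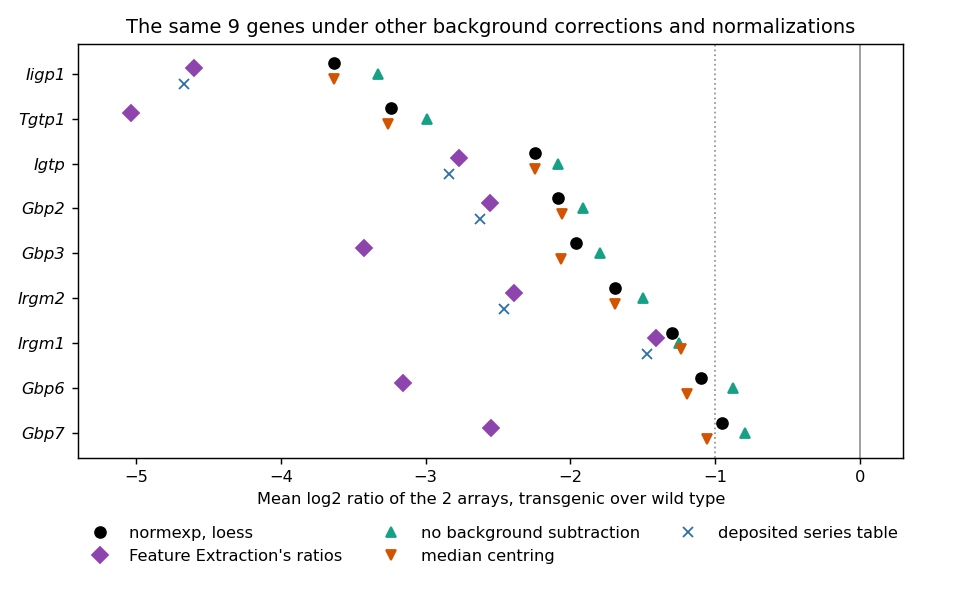
Mean log2 ratio of transgenic over wild type for the 9 detected genes under 5 processings, with 0 as a line and the limit of -1 dotted. All values lie below 0. Those of *Gbp3*, *Gbp6*, *Gbp7* and *Tgtp1*, whose transgenic signal was well above background on array 1 alone, spread the most.

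Other members of the same protein families were described from a list of 24 relatives, of which 12 had a probe and 6 were detected. Of these 6, 3 were lower and 0 higher in the transgenic pool, at a median of -1.08. *Gvin1*, a very large interferon-inducible GTPase, had 3 detected probes, all lower, at -1.50 ± 0.05, -1.82 ± 0.01 and -1.04 ± 0.04 (SD, n = 2). *Gbp9* was lower at -1.20 ± 0.01 (SD, n = 2). For *Gbp8* neither array gave a transgenic signal well above background, and it was at least 2.13-fold lower in the transgenic pool. The second probes of *Gbp8* and *Gbp9* were not detected.

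*Gbp5*, which promotes inflammasome activation, had a log2 ratio of -0.99 ± 0.07 (SD, n = 2) and was not called. *Ifi47*, an IRG gene also named Irg47, gave -0.41 on array 1 and -1.72 on array 2, a mean of -1.06 that the rule did not call. *Irgq*, a divergent family member that is not induced by interferon, stood at 0.30 ± 0.04 (SD, n = 2) and was not called. The undetected relatives were *Gbp2b*, *Gm12250*, *9930111J21Rik2*, *Gm5431*, *Gm12185* and *Irgc1*. Their log2 ratios over all probes ran from -0.82, for *Gbp2b*, to 0.15, for *Gm12185*. Among atlastins and dynamins, large GTPases of membrane fusion and fission, 0 of 8 detected genes were called, at a median of 0.01.

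**Figure D3:**
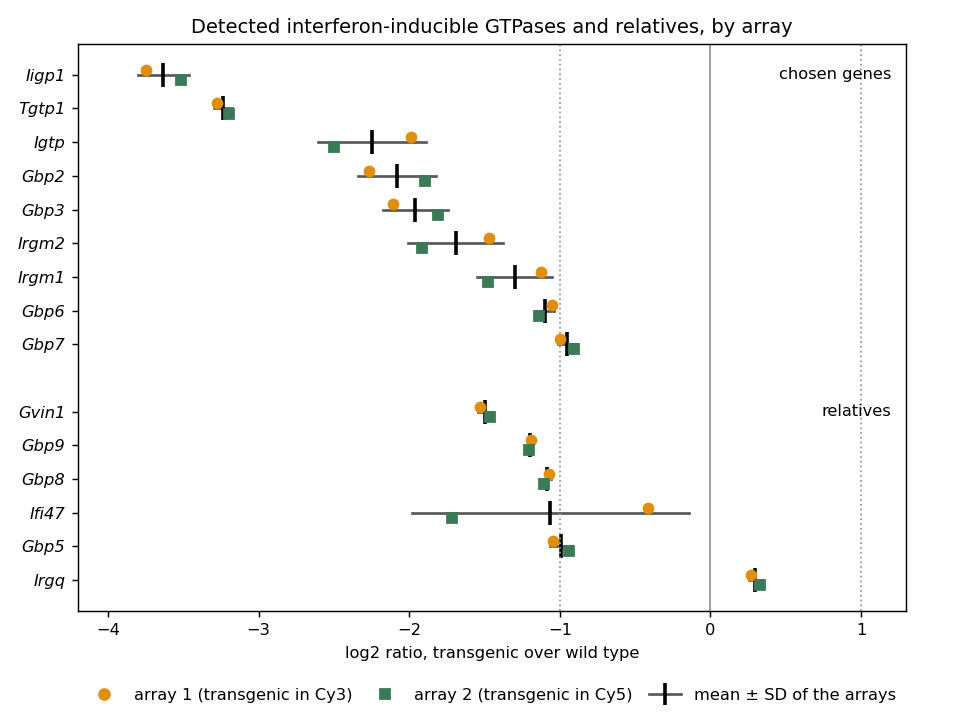
Log2 ratio of transgenic over wild type on array 1 (orange circles) and array 2 (green squares), with the mean and SD of the arrays in black, for the 9 chosen genes above and 6 detected relatives below. The dotted lines mark a log2 ratio of 1 in size, and *Ifi47* has the widest gap between the arrays.

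Of 16 detected genes of interferon-gamma reception and signalling, 2 were lower in the transgenic pool, *Irf1* and *Ciita*, and 0 higher, at a median of -0.34. The ligand *Ifng* was not detected by either of its probes, and the transcriptional activator of MHC class I genes, *Nlrc5*, was not detected either. The receptor chains were detected and not called. *Ifngr1* gave 0.10 on array 1 and -1.26 on array 2, and *Ifngr2* gave -0.38 and 0.07. The kinases *Jak1*, at -0.10 ± 0.19 (SD, n = 2), and *Jak2*, at -0.43 ± 0.44 (SD, n = 2), were not called.

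*Irf1*, an early target of the pathway and itself an activator of GBP genes, had 1358 and 1331 in the transgenic pool, against 2714 and 2903 in the wild-type pool, and was lower at -1.06 ± 0.09 (SD, n = 2). The dimmer *Irf1* probe gave -0.26 ± 0.20 (SD, n = 2) and was not called. The call of *Irf1* was also lost with median centring in place of loess, by the mean of its detected probes and by array 1 alone, and with Feature Extraction's ratios 5 of the 16 pathway genes were lower.

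*Ciita*, the master activator of MHC class II genes, was lower at -1.42 ± 0.09 (SD, n = 2). Its transgenic signal was well above background on array 1 alone. *Ciita* was not among the genes called lower in the deposited series table, or where a clear signal was asked of each pool. *Irf8*, a factor of myeloid and B cells, had a mean of -1.05 and was not called, with -1.54 on array 1 and -0.56 on array 2. *Irf8* was called lower with Feature Extraction's ratios, with no background subtraction and in the deposited series table. By array 1 alone or by the mean alone it was also called lower. *Irf2*, *Irf9* and *Stat3* had log2 ratios of 0.42, -0.05 and -0.06, and none was called. The inhibitors were not called either. *Socs3* stood at -0.89, *Socs1* at -0.73, *Ptpn6* at -0.49, *Pias1* at -0.24, *Ptpn2* at -0.14 and *Ptpn11* at 0.15. With Feature Extraction's ratios *Socs1* and *Socs3* were called lower, and *Socs3* was in the deposited series table too.

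**Figure D4:**
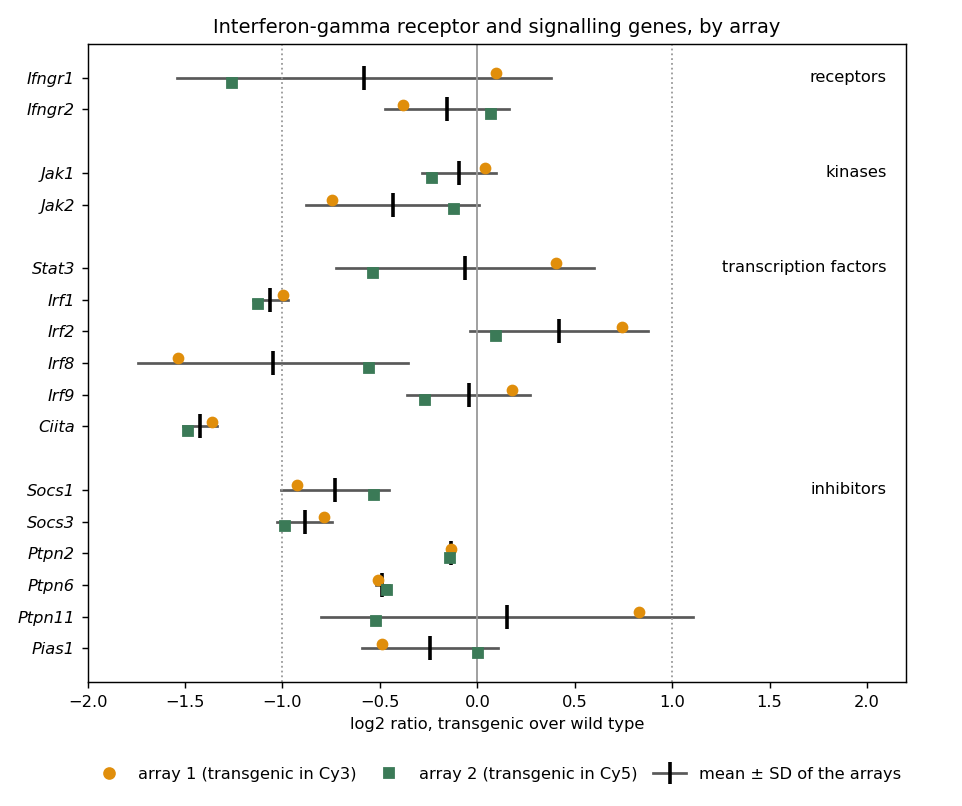
Log2 ratio of transgenic over wild type for the 16 detected genes of interferon-gamma reception and signalling on array 1 (orange circles) and array 2 (green squares), with the mean and SD of the arrays in black. *Irf1* and *Ciita* are the 2 genes called lower, and 7 of the 16 genes do not lie on the same side of 0 on both arrays.

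Among 27 detected interferon-gamma-inducible genes that are not GTPases, 8 were lower and 0 higher in the transgenic pool, at a median of -0.77. The 8 include *Irf1*, which the pathway list also counts. With Feature Extraction's ratios 17 of the 27 were lower, and with median centring 5 were. *Ido1*, which degrades tryptophan, had signals of 70.7 and 128.8 in the transgenic pool, against 591.5 and 816.8 in the wild-type pool, at -2.86 ± 0.28 (SD, n = 2). *Ubd*, the ubiquitin-like modifier FAT10, was lower at -2.36 ± 0.25 (SD, n = 2). The transgenic signal of *Ido1* was well above background on array 1 alone. Neither *Ido1* nor *Ubd* was called lower in the deposited series table, or where a clear signal was asked of each pool. The immunoproteasome subunits *Psmb8* and *Psmb9* were lower at -1.67 ± 0.04 and -1.54 ± 0.28 (SD, n = 2). *Casp1*, the inflammasome protease, and *H2-K1*, an MHC class I heavy chain, were lower at -1.54 ± 0.45 and -1.51 ± 0.22 (SD, n = 2). All 3 *H2-K1* probes were lower, but such probes may read other class I genes of near-identical sequence. *Psmb8* and *H2-K1* were not called with median centring.

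MHC class II genes, which CIITA switches on, were listed together with *Ciita* itself, which the pathway list also counts. Of this list 7 of 8 detected genes were lower, *Ciita* among them, at a median of -2.18. The 3 with the largest changes were *H2-Ab1*, at -2.94 ± 0.27, *H2-Aa*, at -2.87 ± 0.02, and the invariant chain *Cd74*, at -2.56 ± 0.74 (SD, n = 2). The 23 detected type I interferon-stimulated genes had a median of 0.07, with 2 lower and 1 higher. *Zbp1*, a sensor of nucleic acid, was lower at -1.58 ± 0.29, *Ifitm3*, a restriction factor of viral entry, was lower at -1.01 ± 0.03, and *Ifit1*, which binds foreign RNA, was higher at 1.51 ± 0.14 (SD, n = 2). With Feature Extraction's ratios 3 of these genes were lower and 5 higher, and *Ifitm3* was not called with median centring, with no background subtraction or by array 2 alone. The promoters of 14 of the 22 type I genes with an entry held the GAAA pair, and 6 held the GAS motif.

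Among 18 detected genes for loading the GTPases onto vacuoles and acting there, 2 were lower and 0 higher in the transgenic pool, at a median of -0.03. The called genes were *Casp4*, the caspase-11 sensor of lipopolysaccharide, at -2.27 ± 0.52 (SD, n = 2), and *Lgals3*, a galectin that marks broken vacuoles, at -1.46 ± 0.43 (SD, n = 2). The rest of that list includes the autophagy conjugation genes *Atg3*, *Atg5*, *Atg7*, *Atg12* and *Atg16l1*, all measured and not called, between -0.19 and 0.16.

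Leukocyte markers were also lower in the transgenic pool. Of 43 detected markers of 4 leukocyte lists, 30 were lower and 0 higher, at a median of -1.51. In both pools on both arrays 22 of the 43 were well above background. The summed signal of the 43 markers was 11889 and 13180 in the transgenic pool, against 53257 and 60236 in the wild-type pool. That of the 9 GTPase genes was 1640 and 1826, against 6621 and 8201. The pan-leukocyte markers *Cd52*, *Ptprc* and *Coro1a* were lower at -2.79 ± 0.18, -2.57 ± 0.03 and -2.53 ± 0.43 (SD, n = 2). Where a clear signal was asked of each pool, *Cd52* and *Coro1a* were called lower and *Ptprc* was not. The part of the leukocyte markers in the GTPase result was not tested. In RNA from whole tissue, fewer cells of a type and less RNA per cell cannot be told apart.

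By leukocyte type, 8 of 9 detected B and plasma cell markers were lower in the transgenic pool, led by *Cd79b* at -3.80, *Ms4a1* at -3.70 and *Jchain* at -3.54. Of 15 detected macrophage and dendritic cell markers 7 were lower, led by *Ctss* at -2.62, *Lyz2* at -2.17 and *Aif1* at -1.79, and with Feature Extraction's ratios 12 were. Of 8 detected T and NK cell markers 6 were lower. The lowest were *Icos* (at least 2.95-fold lower, not well above background in the transgenic pool), *Cd5* at -1.52 and *Nkg7* at -1.52. The transgenic signal of *Ms4a1* and *Cd5* was well above background on array 1 alone. Where a clear signal was asked of each pool, 2 T and NK cell markers were left and 1 was lower, at a median of -0.76. By that demand 3 of 3 B and plasma cell markers and 7 of 11 macrophage and dendritic cell markers were lower. With no filter on dim probes 6 of 14 T and NK cell markers were lower, at a median of -0.66. The T and NK cell defining genes *Cd4*, *Cd8a*, *Gzmb*, *Prf1*, *Klrb1c* and *Cd247* were not detected in either pool. The part of these cell types in the GTPase result was not tested.

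The tissue label was checked against epithelial markers. All 16 luminal markers were detected in both pools, with a median of 0.09, and 1 was lower, the spermine-binding protein gene *Sbp*, at -1.35 ± 0.55 (SD, n = 2). That call was lost with median centring and by array 2 alone. Of 8 basal markers, 4 endothelial markers and 8 smooth muscle markers detected, 0 were called, with medians of -0.43, -0.12 and -0.35. Below 0 on both arrays were 8 of the basal, 1 of the endothelial and 6 of the smooth muscle markers, against 27.3% of all genes. The endothelial list held 11 markers, so most of it was not detected. Of 9 detected fibroblast markers, 3 were lower, namely *Vim* at -1.29, *Lum* at -1.11 and *Col3a1* at -1.11, and the median was -0.76. With median centring 0 fibroblast markers were lower, 5 were by array 2 alone, and 6 were in the deposited series table. The part of these changes in the GTPase result was not tested.

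**Figure D5:**
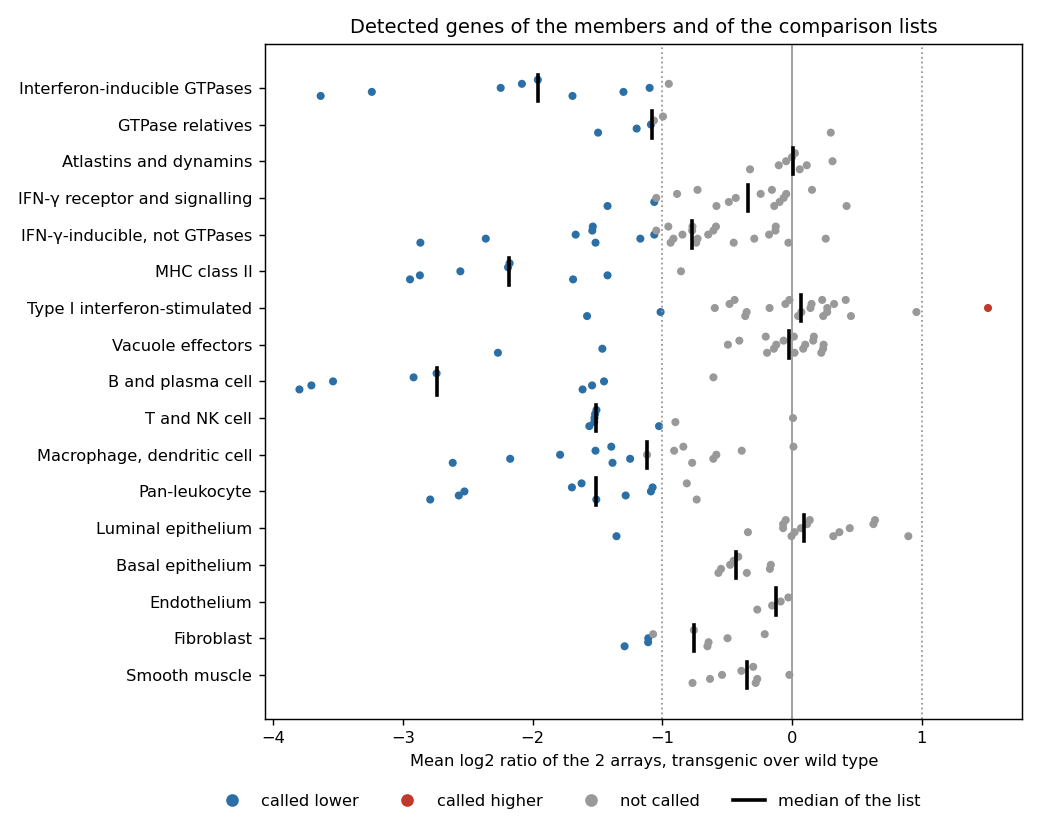
Mean log2 ratio of transgenic over wild type for each detected gene of the members and the comparison lists, with black bars for list medians and dotted lines at 1 in size. The GTPases lie at -0.95 or lower, the MHC class II and leukocyte lists extend to similar values, and the medians of the type I interferon and luminal epithelium lists are near 0.

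The genes lie in clusters, and the flanking genes were examined after the values were seen. The locus of *Iigp1* was not analysed here. Over the 4 loci of the other 9 genes, the 2 nearest detected protein-coding genes on each side gave 16 genes, of which 0 were called in either direction. Their mean log2 ratios ran from -0.28, for *Zfp951* beside *Gbp4* and *Gbp6*, to 0.61, for *Gemin5* beside *Igtp* and *Irgm2*, at a median of 0.14.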

How the data were processed

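The 2 arrays are a technical dye swap of 1 pair of RNA pools. Per the labels' protocols, the labelling used 100 ng of RNA and Agilent's Low Input Quick Amp kit. Per the file headers, the scans were read by Feature Extraction 11.0.1.1 and annotated on mm9. The deposited scanner files give spot and background intensity as median pixel values, and a log10 ratio of red over green made from processed signals. The deposited series table gives log2 ratios, and by comparison with the scanner files both columns run transgenic over wild type with a median of 0. Its scale was found to be that of the scanner software, and how its probes were filtered is not stated there.

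Normexp (offset 50) corrected the background and loess normalized each array, in limma 3.58.1 in R 4.3.3, leaving out 1639 control spots and outlier spots. Levels were scaled between arrays (Aquantile). A probe was detected if well above background on both arrays in at least 1 pool, which left 18069 of 41174 probes, and a gene took its brightest detected probe. Symbols came from RefSeq (GRCm38.p6) for 27816 probes. The 10 genes, the lists and the rules were chosen with earlier results of these data known. Named were every member and relative with a probe, every gene of the pathway list with a probe, the 6 lowest and 3 highest called genes of the interferon lists, and the 3 largest called genes of each other list. Other genes named as context, including the undetected T and NK cell genes, the autophagy genes and the flanking genes, were chosen after their values were seen. One gene of the pathway is not reported here. The code was tested on simulated data in which only bright probes were given a change, so changes of dim probes were not covered. The number of arrays limits the precision.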

Additional observations from a re-analysis of the deposited data

How the results depend on the processing

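The processing moved the size of the ratios more than their direction. All measured members stayed below 0 under each of the 10 settings that gave a ratio. With Feature Extraction's ratios the members' median log2 ratio was -2.77, the relatives' median -2.19, relatives called lower 5, and all genes called 938 lower and 309 higher. With no background subtraction the medians were -1.80 for members and -0.89 for relatives, *Gbp6* and *Gbp7* were not called, and 7 members were lower. In that setting 3.08% of all genes were lower. With median centring in place of loess the medians were -2.06 and -1.24, and *Gbp7* was called while *Irgm1* was not. There 8 members and 2.91% of all genes were lower, and 99 genes were higher. With no filter on dim probes the medians were -1.83 over 10 members and -0.50 over 12 relatives.

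With probes well above background in both pools alone, 5 members were measured and all 5 were lower (*Gbp2*, *Igtp*, *Iigp1*, *Irgm1*, *Irgm2*), at a median of -2.08, the relatives had 1 of 2 lower at -0.60, and 267 genes were lower. The deposited series table held the same 5 members, all lower at -2.63, and 1 of 2 relatives lower at -0.82. In both settings fewer members and relatives were measured, and every measured member was lower. Both measured 12011 genes, against 13899 in the main processing. With probes well above background in both pools 2.22% of the measured genes were lower, against 3.53% in the main processing. In the deposited series table the share was 3.45%. The detected members left out in both settings were *Gbp3*, *Gbp6*, *Gbp7* and *Tgtp1*, whose transgenic signal was well above background on array 1 alone. Asking for both pools leaves them out by its rule. Why the deposited series table lacks them, and why the shares differ, was not tested. A 3-fold limit left 6 members, 0 relatives, and 236 genes lower and 47 higher. By 1 array alone at 2-fold, members called lower numbered 8 by either array, genes higher ran from 271 to 450, genes lower from 589 to 599, the relatives' median from -1.16 to -1.06, relatives called lower 4 by either, and the members' median from -1.99 to -1.90. Taking the mean of a gene's detected probes, or asking for the mean alone, left 8 members lower. The shares of all genes called lower were then 3.33% and 3.62%. No paired analysis was possible because each genotype has 1 pool. The spread between mice was not measured, so no value here has a biological error. Some counts of the pathway and marker lists that changed stand beside them in the report, but not all are given. At 3-fold 0 of 8 T and NK cell markers and 5 of 11 pan-leukocyte markers were lower. The basal marker *Trp63* was called lower with Feature Extraction's ratios, by array 2 alone and in the deposited series table. The cause of these changes was not tested. The medians of the type I interferon and vacuole lists lay near 0 and changed sign between settings.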
